A study of Mus musculus with 12 samples.

Results

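C2C12 mouse myoblasts labelled as Mapk14 knockout were compared between differentiation medium (DM) and growth medium (GM) after 5 days, by RNA-seq of total RNA. The members were the libraries that the labels give this genotype: 6 of the 12 in the series, 3 in GM and 3 in DM, all called biological replicates. The other 6 libraries came from wild-type (WT) C2C12 cells in the same media and were used to share the estimate of the spread and to test where the response differed. Growth medium was high-glucose DMEM with 10% fetal bovine serum, and differentiation medium was DMEM with 2% horse serum. Cells of both genotypes were grown to about 60% confluence in GM and then either kept in it or switched. All 12 libraries carry the same batch date. C2C12 is an immortal line that goes back to mouse satellite cells, the stem cells of skeletal muscle. The labels do not say how the gene was edited, which part of it was removed or whether the line is a single clone. Of the 55416 genes in the count table, 13250 passed the filter on low counts and were tested.

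Myoblasts leave the cell cycle and fuse into multinucleated fibres when serum is withdrawn. MyoD and myogenin, which bind E-boxes, work there with MEF2 factors to switch on the genes of the contractile apparatus. The kinase p38 alpha, the product of Mapk14, is activated at that step. It is known to phosphorylate MEF2 proteins and E-box partners and to recruit chromatin remodelling to muscle promoters, and it restrains proliferation signals through JNK and AP-1. Growth factors in serum act in the other direction through the ERK pathway, cyclin D1 and the Id proteins.

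Levels are in CPM, the count of a gene relative to the library's total after TMM scaling, and are listed in the order of replicates 1, 2 and 3. A change is the fitted log2 ratio of DM to GM with its standard error after the ± sign, and p is adjusted over all genes tested. A gene rose or fell where that p was below 0.05. Mapk14 itself was read first as a check of the label. Its RNA was at 130.3, 136 and 137 CPM in GM and 93.8, 90.02 and 84.5 CPM in DM. These levels overlapped with those of WT cells in both media, which had 130.1, 135 and 108 CPM in GM and 93.9, 91.2 and 88.7 CPM in DM, so the RNA level does not check the label, and an edit that leaves the transcript in place could not be seen in these counts. Within the KO-labelled cells Mapk14 fell by 0.59 ± 0.08 with the medium (adjusted p = 3.13e-06), and the media did not overlap.

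The 6 libraries held 9399831 to 11536396 counts over 16039 to 16522 genes, so 3 counts correspond to 0.26 to 0.322 CPM. Replicate 3 of the GM group stood apart from the other two. The chi-square of its counts against theirs was 14 and 10.3 per degree of freedom, against 6.15 between those. It lay on the side of DM: among genes that changed at least 2-fold it was the GM library nearest to DM for 640 of 946 that rose and 287 of 447 that fell. Leaving it out gave 2825 genes that rose and 2619 that fell. Results that turn on it are given with and without it. In WT cells GM replicate 3 also stood apart, at 14.1 and 9.37 per degree of freedom against 3.45 between WT GM replicates 1 and 2. Whether that library lay toward DM was not counted over genes, and a cause shared with the KO-labelled library was not tested. Markers of other cell types were few. Of 12 leukocyte markers 4 were tested and Lyz2 alone was called, with a summed level of 14.7 to 15.6 CPM in GM and 17.3 to 21.6 CPM in DM, and Ptprc, Adgre1, Itgam and Cd3e had 0 counts in all 6 libraries. Of 12 endothelial markers 2 were tested and neither was called, at 6.12 to 8.42 CPM against 7.15 to 7.701 CPM in sum, with Emcn, Cldn5 and Erg at 0. Without GM replicate 2, 1 of them fell. Of 12 epithelial markers Krt14 rose and Krt19 fell, at 4.29 to 6.21 CPM against 13.8 to 14.7 CPM in sum, with Epcam, Krt8 and Krt18 at 0. Of 14 neural markers 4 were tested, 2 rose, or 1 without DM replicate 3 or GM replicate 1, and 1 fell, with a sum of 15.1 to 19.1 CPM against 8.92 to 10.2 CPM and Sox10 and S100b at 0. Fibroblast markers were more abundant. Of 16 listed 9 were tested, 5 rose and 1 fell, their sum was 1068 to 1434 CPM in GM and 2065 to 2159 CPM in DM, and Dpp4, Fap, Tcf21 and Tnmd had 0 counts.

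With the change to DM, 2754 genes rose and 2627 fell. That is 20.8% and 19.8% of the genes tested, or 40.6% in either direction. The list counts below are to be read against these shares, and a list near them does not stand out from all genes. At least 2-fold changes were called in 946 genes that rose and 447 that fell, and at least 8-fold changes in 189 and 60. Among called genes the median absolute change was 0.56 on the log2 scale, while the median over all genes tested was 0. The 3 libraries of each medium did not overlap in 6721 genes, 50.7% of those tested. Because these are bulk cultures, fewer cells of a type and less RNA per cell cannot be told apart. The response differed from that of WT cells in 1174 genes, 8.86% of those tested, 478 with a higher and 696 with a lower response in KO-labelled cells. That split moved with the scaling. By total counts alone, 57.8% of the called differences were higher rather than 40.7%. The number moved with single libraries. It was 693 without WT DM replicate 2, 754 without KO DM replicate 1, 735 and 741 without KO GM replicate 1 and replicate 2, and 1920 without KO GM replicate 3. Without both GM replicate 3 libraries it was 2709, of which 1373 were higher and 1336 lower. A total of 2891 genes were called in the same direction in both kinds of cell and 87 in opposite directions.

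**Figure D1:**
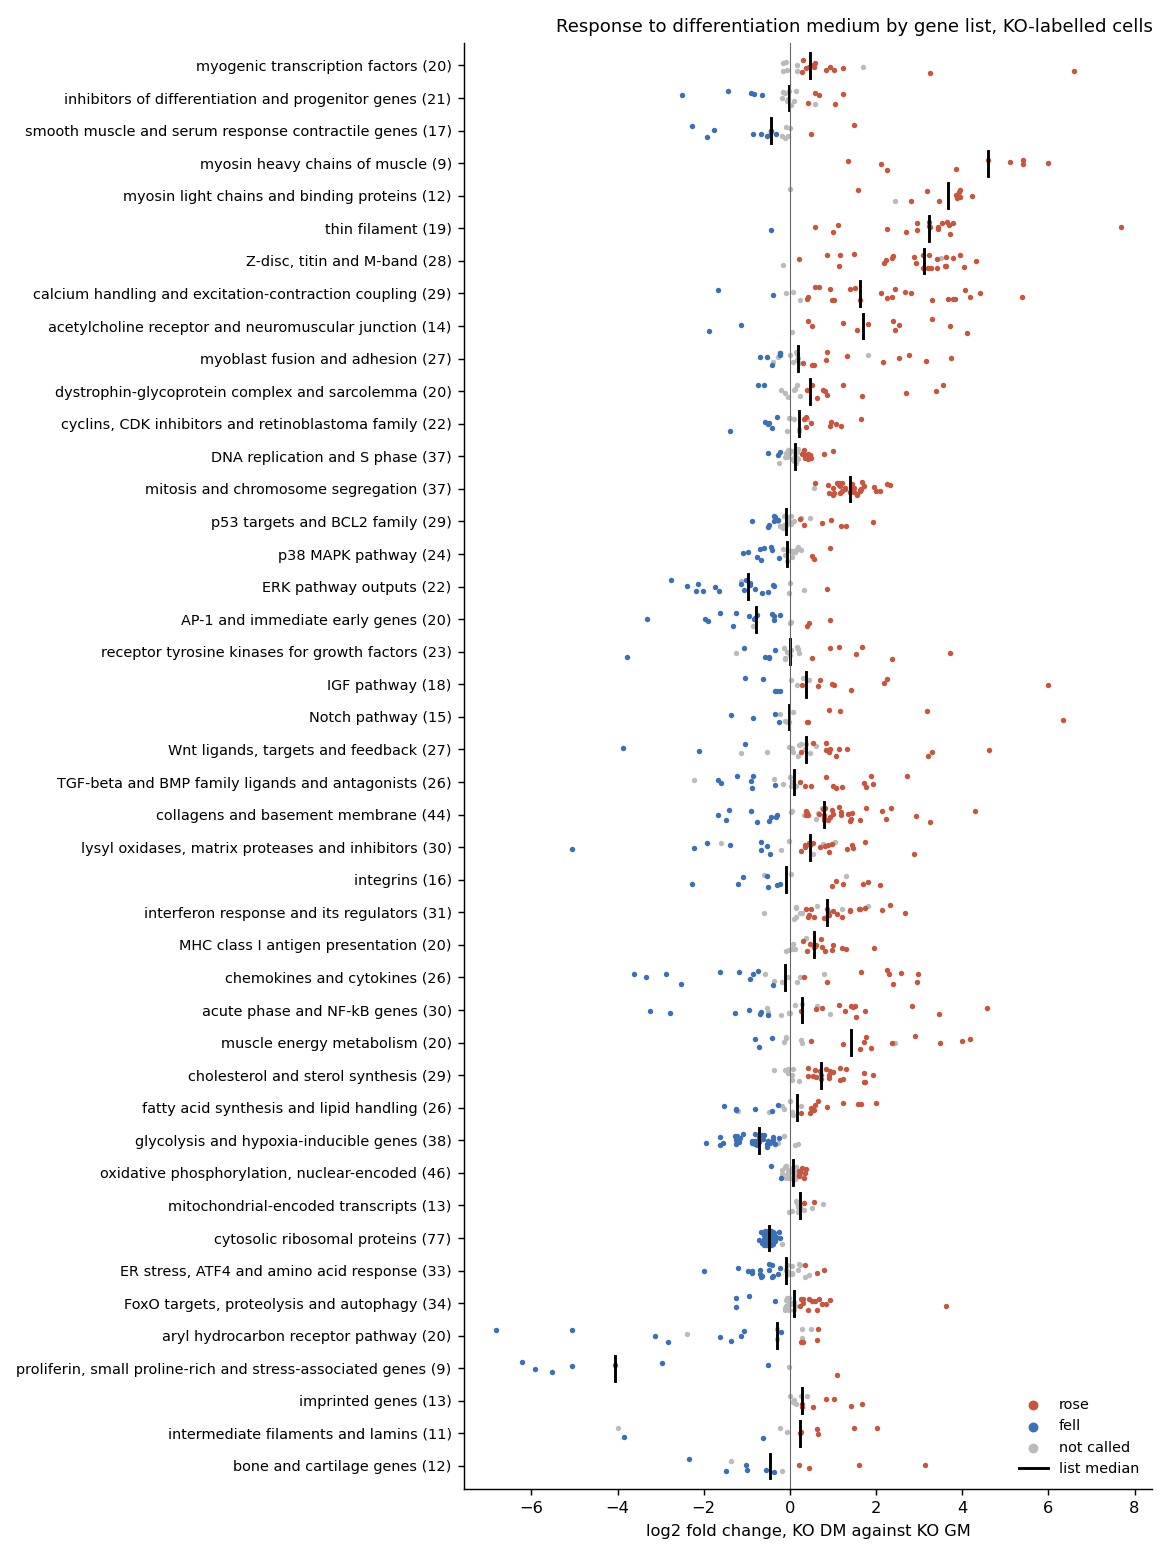
Log2 change from GM to DM in KO-labelled cells (x axis) for the members of each gene list (y axis), 1 point per tested gene, with the list's median as a bar. The lists of contractile genes lie to the right, with medians of 4.6, 3.67 and 3.23 for heavy chains, light chains and the thin filament, and ERK outputs (-0.98) and glycolysis (-0.72) to the left. The fitted values of genes at 0 counts in a medium, such as Xirp2, Mef2c, Heyl, Myh8 and Myh4, depend on the prior count. With the 3 heavy chains at 0 counts in GM placed at their bound, the heavy chain median is 2.45.

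Of 20 regulators of muscle differentiation tested, 13 rose and none fell, with a median of 0.47. Myog, which encodes myogenin and is switched on as myoblasts commit to fuse, was at 31.4, 16.8 and 45.9 CPM in GM and 316, 294 and 287 CPM in DM. All 3 DM libraries exceeded the GM libraries several-fold, and GM replicate 3 was the highest of its group. The change was 3.26 ± 0.34 (adjusted p = 8.51e-05). Myod1, the determination factor already present in dividing myoblasts, was at 62.6, 67.95 and 64.5 CPM in GM and 132, 126 and 111 CPM in DM and rose by 0.92 ± 0.09 (adjusted p = 3.11e-08). Its GM libraries lay close together and did not overlap with DM. Mef2a, a MEF2 factor that p38 phosphorylates, rose by 1.23 ± 0.09. Mef2c had 0 counts in the GM libraries and 37 over the DM libraries, a level at least 12.6-fold higher against a floor of 3 counts over the group. Its call was lost without DM replicate 1 or 3 or any GM replicate, where the adjusted p was 0.054 to 0.07. Mef2c is counted among the 13 that rose, but its mean was 1.18 CPM in KO DM against 75.1 CPM in WT DM. The low-count filter took in the WT libraries. Myf5, the earliest determination factor, was at 3.44, 5.55 and 5.94 CPM in GM and 4.86, 4.39 and 4.83 CPM in DM, and its media overlapped (log2 difference -0.1 ± 0.2, adjusted p = 0.723).

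Genes that hold myoblasts back or mark the progenitor state did not move one way. Of 21 tested, 5 rose and 5 fell (47.6% called, against 40.6% of all genes tested), with a median of -0.03. Id proteins block E-box factors by pairing with their partners. Among them Id2 was at 42.9, 43.2 and 37.2 CPM in GM and 16.4, 16.4 and 12.7 CPM in DM and fell by 1.44 ± 0.12 (adjusted p = 3.06e-09), Id1 fell by 0.84 ± 0.14, and Id3 was at 145, 135 and 158 CPM in GM and 155, 151 and 163 CPM in DM. Id3 overlapped between the media, at 0.1 ± 0.07 (adjusted p = 0.313). Without the GM replicate 3 libraries of both genotypes it was called (adjusted p = 0.0257). Snai2, a repressor that competes for E-boxes, rose by 1.05 ± 0.13. Pax7, the satellite cell factor, stood at 13.6, 16.03 and 19.9 CPM in GM and 16.2, 16.9 and 14.3 CPM in DM, and these ranges overlapped. Itga7, the laminin-binding integrin of muscle, was at 219, 226 and 278 CPM in GM and 586, 562 and 555 CPM in DM and rose by 1.23 ± 0.08 (adjusted p = 7.64e-11).

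A few promoters of listed genes are shown here and further on to let the letters of a known motif be seen. They are RefSeq promoters of GRCm38.p6, 250 bases before to 50 after the start, matched to the genes by symbol since the counts were made on GRCm39. Each was chosen after the matches had been seen. A match is a description of letters and no site of binding. The E-box CAGCTG, searched on both strands, was in 16.3% of all 32851 promoters. It was in 7 of 12 promoters of myosin light chain genes, 9 of 21 of the calcium list, 7 of 20 of the thin filament, 9 of 27 of the Z-disc list and 4 of 12 of the neuromuscular junction list, but in 3 of 21 of the regulators and 1 of 10 of the heavy chains. The MEF2 motif was in 3.19% of all promoters, in 3 of 10 of the myosin heavy chains, 7 of 27 of the Z-disc list, 3 of 21 of the calcium list and 2 of 24 of the muscle energy list, and in 1 promoter each of the 21 of the regulators, 12 of the light chains and 20 of the thin filament. The windows of Myog and Ryr1 held neither motif, which says only that these letters are not in those windows. Capitals mark 2 E-boxes upstream of Chrng (chr1:87205561-87205860, plus strand), an E-box and then a CArG box upstream of Acta1 (chr8:123894726-123895025, minus strand), and a MEF2 motif upstream of Casq2 (chr3:102086165-102086464, plus strand).
Chrng: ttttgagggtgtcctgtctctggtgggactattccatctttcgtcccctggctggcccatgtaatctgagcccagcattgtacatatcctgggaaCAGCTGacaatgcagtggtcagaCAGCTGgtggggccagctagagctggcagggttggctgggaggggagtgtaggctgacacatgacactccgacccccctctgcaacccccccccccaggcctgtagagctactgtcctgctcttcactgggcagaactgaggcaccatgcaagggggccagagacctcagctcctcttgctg
Acta1: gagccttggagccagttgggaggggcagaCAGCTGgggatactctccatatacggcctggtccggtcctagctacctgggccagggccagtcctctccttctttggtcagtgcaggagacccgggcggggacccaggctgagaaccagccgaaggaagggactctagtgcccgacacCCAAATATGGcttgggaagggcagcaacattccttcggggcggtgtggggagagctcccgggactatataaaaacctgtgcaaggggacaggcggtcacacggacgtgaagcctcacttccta
Casq2: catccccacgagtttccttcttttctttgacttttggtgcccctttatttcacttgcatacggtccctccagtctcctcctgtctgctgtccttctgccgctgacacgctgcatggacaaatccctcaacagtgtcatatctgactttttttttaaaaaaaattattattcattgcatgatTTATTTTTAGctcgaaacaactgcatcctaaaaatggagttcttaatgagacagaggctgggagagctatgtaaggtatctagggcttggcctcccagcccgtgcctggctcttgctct

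All 9 muscle myosin heavy chains tested rose, with a median of 4.6, or 2.45 with the 3 genes at 0 counts in GM placed at their bound. The low-count filter took in the WT libraries. Myh8 and Myh4 had means of 0.778 and 0.508 CPM in KO DM, against 20.4 and 8.53 CPM in WT DM. With only the 6 KO-labelled libraries in the fit, 5 of the 9 heavy chains were called. That fit filtered genes anew, with 12758 tested, so a chain not called there may not have been tested. Heavy chains are the motors of the thick filament, and their isoforms set the speed of a fibre. The adult fast chain Myh1 was at 4.72, 4.77 and 13.5 CPM in GM and 265, 272 and 265 CPM in DM, a rise of 5.1 ± 0.53 (adjusted p = 7.65e-05), or 34.4-fold. GM replicate 3 was the highest of its group and still far below DM. The embryonic chain Myh3 was at 3.44, 2.43 and 7.36 CPM in GM and 71.03, 59.9 and 63.5 CPM in DM and rose by 3.86 ± 0.46. Myh2 was detected in a single GM library and stood at 0, 0 and 0.443 CPM in GM and 7.09, 6.72 and 7.62 CPM in DM. Its change was 5.42 ± 0.45, or 9.16 without GM replicate 3 and 4.82 without GM replicate 2. Without GM replicate 3 the changes of Myh1 and Myh3 were 5.82 and 4.49. The perinatal chain Myh8 had 0 counts in GM and 24 in DM, at least 8.2-fold higher, and the fast chain Myh4 had 0 and 16, at least 5.47-fold higher.

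Light chains and myosin-binding proteins rose in 10 of 12, and none fell. Mylpf, the fast regulatory light chain, was at 37.4, 18.7 and 62.2 CPM in GM and 476, 401 and 439 CPM in DM and rose by 3.47 ± 0.48 (adjusted p = 0.000456). Myl4, the light chain of embryonic muscle, was at 8.804, 6.33 and 11.4 CPM in GM and 139.8, 119 and 127 CPM in DM (change 3.86 ± 0.33, adjusted p = 1.9e-05). The media stayed apart in both genes. Mybph, a thick filament binding protein, rose by 3.95 ± 0.44. Unc45b, a chaperone that folds myosin, and Smyd1, a methyltransferase of muscle, rose by 3.93 ± 0.24 and 3.89 ± 0.21.

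In the thin filament 18 of 19 rose and 1 fell. Skeletal actin, Acta1, was at 122, 72.98 and 227 CPM in GM and 1976, 1771 and 1707 CPM in DM, a rise of 3.69 ± 0.43 (adjusted p = 0.000159), and GM replicate 3 held more than the other GM libraries together. Actc1, the cardiac actin that embryonic skeletal muscle also makes, was at 1.18, 1.04 and 4.7 CPM in GM and 32.8, 24.4 and 24.99 CPM in DM and rose by 3.53 ± 0.49 (adjusted p = 0.000501), or by 4.62 without GM replicate 3. The troponin complex, which gives the filament its calcium switch, rose in each part named: Tnnt3 by 3.44 ± 0.36, Tnni1 by 3.65 ± 0.38, Tnni2 by 3.23 ± 0.31, Tnnc1 by 3.43 ± 0.35 and Tnnc2 by 3.71 ± 0.36. Nebulin, the ruler of filament length, rose by 3.22 ± 0.38 (gene Neb). Tpm3, a tropomyosin that non-muscle cells also use, was the gene that fell, at 399, 382 and 335 CPM in GM and 274, 279 and 265 CPM in DM (change -0.45 ± 0.07, adjusted p = 2.78e-05), while Tpm2 rose by 1.12 ± 0.09. Xirp2, an actin-binding repeat protein of the sarcomere, went from 0 counts in each GM library to 21, 31 and 28 counts in DM, at least 27.3-fold higher.

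The Z-disc, titin and M-band list, which anchors and centres both filaments, rose in 26 of 28 with a median of 3.11. None fell, or 1 without GM replicate 3. Titin (Ttn) was at 16.5, 12.4 and 29.7 CPM in GM and 174, 218 and 233 CPM in DM and rose by 3.41 ± 0.3 (adjusted p = 2.66e-05). The DM libraries were all above 170 CPM and the GM libraries all below 30 CPM. Myom1, which cross-links myosin at the M-band, was at 1.83, 0.607 and 3.104 CPM in GM and 31.8, 29.04 and 30.7 CPM in DM (change 4.04 ± 0.41, adjusted p = 3.29e-05, or 4.71 without GM replicate 3). The Z-disc actinin Actn3 rose by 2.93 ± 0.25. Desmin, the intermediate filament around the Z-disc, was already at 112, 109 and 147 CPM in GM and rose by 1.48 ± 0.1 (gene Des). Without the GM replicate 3 library of either genotype, the medians of the heavy chain, light chain, thin filament and Z-disc lists were 4.59, 4.16, 3.59 and 3.4. The heavy chain median includes fitted values of genes at 0 counts in GM, which depend on the prior count.

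**Figure D2:**
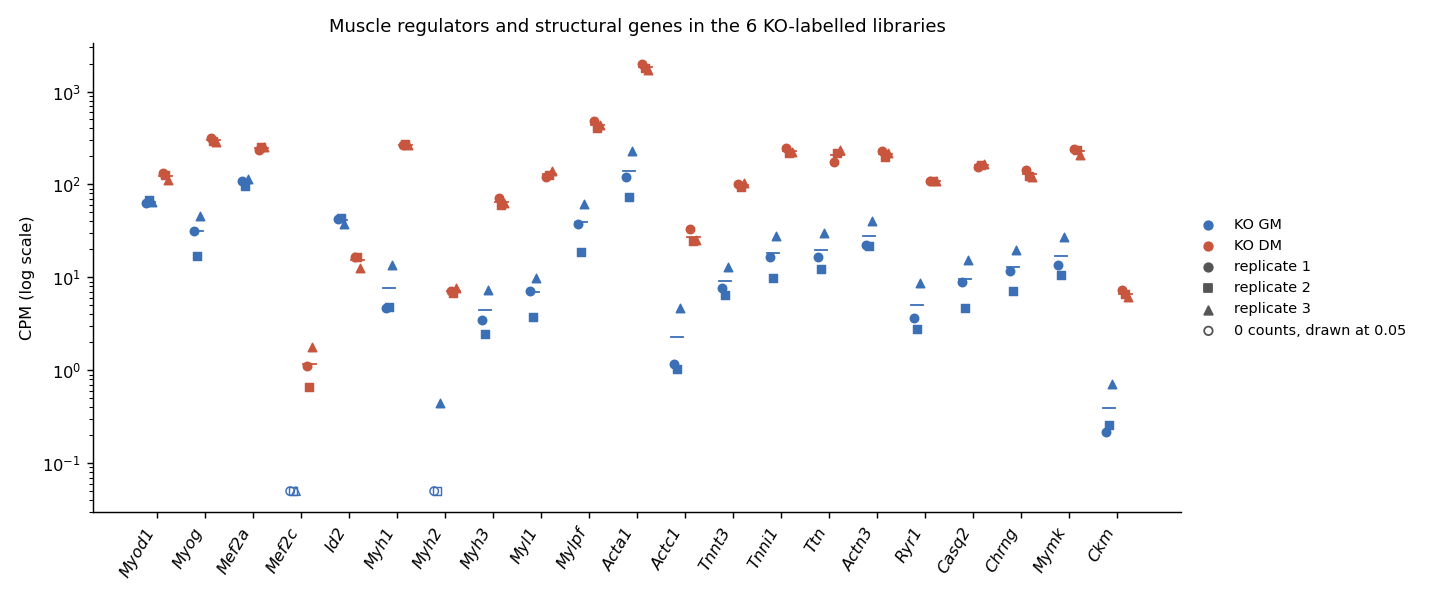
Levels in CPM (y axis, log scale) of muscle genes in the 3 GM and the 3 DM libraries of KO-labelled cells, 1 point per library, with open symbols at the foot of the axis for 0 counts. The libraries of the media do not overlap in the sarcomere genes, and GM replicate 3 is the highest GM library for most of them.

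Calcium handling followed the contractile genes, with 24 of 29 tested rising, 2 falling and a median of 1.63. In a fibre the voltage sensor in the T-tubule opens the ryanodine receptor of the reticulum. The receptor gene Ryr1 was at 3.65, 2.77 and 8.601 CPM in GM and 108, 108 and 108 CPM in DM, a rise of 4.41 ± 0.33 (adjusted p = 7.42e-06). DM libraries were within 1 CPM of each other, while GM replicate 3 was above the other GM libraries. The sensor subunit Cacna1s was at 1.72, 0.867 and 4.35 CPM in GM and 32.7, 34.9 and 32.3 CPM in DM (change 3.83 ± 0.53, adjusted p = 0.000476). Casq2, which binds calcium inside the reticulum and whose promoter is shown above, was at 8.804, 4.68 and 15.3 CPM in GM and 155, 162 and 167 CPM in DM and rose by 4.07 ± 0.44 (adjusted p = 9.43e-05). The fast pump Atp2a1 rose by 2.81 ± 0.13 and the general pump Atp2a2 by 0.4 ± 0.07. Cav3, the caveolin of muscle, rose by 3.78 ± 0.31. With GM replicate 3 left out, Ryr1, Cacna1s and Cav3 changed by 5.09, 4.73 and 4.42. Rrad, a small GTPase that inhibits calcium channels, was among the largest rises of all genes, at 0.537, 0.173 and 0.621 CPM in GM and 19.9, 19.3 and 16.8 CPM in DM (change 5.38 ± 0.28, adjusted p = 2.72e-12). Clcn1, the chloride channel of mature fibres, fell by 1.67 ± 0.3, from 6.76, 4.85 and 4.35 CPM to 1.62, 1.49 and 1.86 CPM.

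At the neuromuscular junction 11 of 14 rose and 2 fell. The fetal receptor subunit Chrng was at 11.8, 7.11 and 19.9 CPM in GM and 143, 122 and 119 CPM in DM, a rise of 3.31 ± 0.27 (adjusted p = 1.1e-05). Chrnd rose by 2.54 ± 0.11, Chrnb1 by 1.56 ± 0.09 and Chrna1 by 1.23 ± 0.08, so that each subunit named rose, the delta and gamma subunits by more than the alpha subunit in the fitted values. The kinase Musk and its adaptor Dok7, which cluster the receptor, rose by 2.4 ± 0.21 and 2.45 ± 0.15, and the agrin receptor Lrp4 was at 69.1, 73.2 and 95.3 CPM in GM and 269, 288 and 279 CPM in DM (change 1.81 ± 0.09, adjusted p = 2.27e-12). Acetylcholinesterase, which clears the transmitter, went the other way. Ache was at 8.59, 13.1 and 8.16 CPM in GM and 2.13, 3.17 and 2.79 CPM in DM and fell by 1.88 ± 0.28 (adjusted p = 1.44e-05), and these libraries did not overlap.

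Among genes of fusion and adhesion 11 of 27 rose and 6 fell, with a median of 0.18. Without both GM replicate 3 libraries 17 rose. The fusogens themselves rose. Mymk, or myomaker, was at 13.7, 10.6 and 27.05 CPM in GM and 241, 236 and 209.7 CPM in DM and rose by 3.74 ± 0.35 (adjusted p = 3.72e-05), and Mymx, or myomerger, was at 1.72, 0.78 and 2.66 CPM in GM and 17.2, 14.2 and 15.1 CPM in DM and rose by 3.17 ± 0.25 (adjusted p = 2.48e-09). The media did not overlap for either. Cell contact genes moved less. Cdh15, the muscle cadherin, rose by 1.32 ± 0.08, Cdon, its partner in p38 activation, by 0.84 ± 0.08 and Ncam1 by 0.57 ± 0.08. Neural cadherin, Cdh2, was at 116, 119 and 104 CPM in GM and 122, 123 and 113 CPM in DM and its libraries overlapped (adjusted p = 0.385). Of the ferlins that mend and fuse membranes, Dysf rose by 2.15 ± 0.14 and Myof fell by 0.41 ± 0.07. In the dystrophin-associated complex, which links the cytoskeleton to laminin, 11 of 20 rose and 2 fell. Dag1, dystroglycan, rose by 0.63 ± 0.08.

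Muscle energy genes were called in 11 rises and 3 falls of 20. Myoglobin, the oxygen store of fibres, was at 3.76, 1.39 and 4.26 CPM in GM and 59.98, 47.6 and 60.4 CPM in DM and rose by 4.17 ± 0.49 (gene Mb, adjusted p = 0.000163). The creatine kinase Ckm was at 0.215, 0.26 and 0.709 CPM in GM and 7.295, 6.54 and 6.13 CPM in DM, a rise of 4 ± 0.33 (adjusted p = 2.34e-09). Pygm, which releases glucose from glycogen, rose by 3.48 ± 0.33, and Pdk4, which shuts pyruvate out of oxidation, by 1.62 ± 0.15. The 3 libraries of each medium were apart in all of these. Ckm and Pygm changed by 4.73 and 4.27 without GM replicate 3.

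Contractile genes shared with smooth muscle went against the skeletal ones. Of 17 tested, 2 rose and 10 fell, and 8 had a lower response than in WT cells with 1 higher. Tagln, an actin-binding protein of smooth muscle, was at 462, 516 and 432 CPM in GM and 299.9, 271 and 323 CPM in DM and fell by 0.66 ± 0.1 (adjusted p = 1.19e-05). The enteric actin Actg2 was at 126, 131 and 99.6 CPM in GM and 35.7, 35.02 and 34.4 CPM in DM and fell by 1.76 ± 0.1 (adjusted p = 5.65e-12), and calponin, Cnn1, fell by 2.28 ± 0.4. No DM library of these 3 genes reached the lowest GM library. Smooth muscle actin, Acta2, was not called, at 1766, 1787 and 1783 CPM in GM and 1757, 1604 and 1655 CPM in DM (adjusted p = 0.319). The matricellular gene Ccn1 rose by 0.48 ± 0.07, while Ccn2 fell by 0.45 ± 0.1. The CArG box that serum response factor reads was in 1.63% of all promoters, in 4 of 15 of this list and in 5 of 22 of the immediate early genes.

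Cell cycle genes split by phase. Of the mitosis list 36 of 37 rose and none fell, with a median of 1.39, and the libraries of the media did not overlap for 36. Ccnb2, a B-type cyclin, was at 4.94, 4.25 and 4.97 CPM in GM and 21.1, 24.2 and 25.4 CPM in DM and rose by 2.32 ± 0.24 (adjusted p = 4.98e-07). Mki67, the antigen of cycling cells, was at 39.5, 35.8 and 37.1 CPM in GM and 92.5, 104 and 104 CPM in DM and rose by 1.42 ± 0.22 (adjusted p = 0.000641). The centromere histone Cenpa rose by 2.08 ± 0.2, the kinase Plk1 by 1.95 ± 0.18, cyclin A2 (Ccna2) by 1.63 ± 0.18 and the mitotic kinase Cdk1 by 0.59 ± 0.1. Cdc25c, the phosphatase that activates Cdk1, was the member not called, at 2.899, 1.99 and 1.51 CPM in GM and 2.63, 3.17 and 3.44 CPM in DM (adjusted p = 0.187). The summed level of the list was 594 to 647 CPM in GM and 1466 to 1553 CPM in DM. TTTGAA, the core of the cell cycle homology region, was in 17.9% of all promoters and in 25 of 33 of this list. It is in capitals, at 2 places, in the promoter of Ccnb2 (chr9:70421505-70421804, minus strand).
Ccnb2: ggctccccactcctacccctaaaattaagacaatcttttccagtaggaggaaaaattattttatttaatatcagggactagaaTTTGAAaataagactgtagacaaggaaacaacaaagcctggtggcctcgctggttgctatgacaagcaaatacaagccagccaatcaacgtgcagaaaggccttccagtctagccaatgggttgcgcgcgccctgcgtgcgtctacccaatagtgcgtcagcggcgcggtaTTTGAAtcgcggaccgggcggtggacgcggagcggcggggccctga

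DNA replication genes did not follow. Of 37 tested, 11 rose and 3 fell, none of them by 2-fold or more, and the median was 0.12. The share called was 37.8%, against 40.6% of all genes tested. Leaving out DM replicate 2 or GM replicate 3 gave 7 rises, and leaving out DM replicate 3, GM replicate 1 or GM replicate 2 gave 0 falls. In WT cells the median of the same genes was 0.79, and the response was lower in KO-labelled cells for 27 of them and higher for none. The summed level of the list in KO-labelled cells was 2376 to 2815 CPM in GM and 2694 to 2956 CPM in DM. In WT cells it was 1667 to 1938 CPM in GM and 2949 to 3090 CPM in DM. The KO-labelled sum was thus already above that of WT cells in GM. The helicase subunit Mcm5 was at 202, 196 and 164 CPM in GM and 217, 200.3 and 188 CPM in DM, and the polymerase clamp Pcna at 244, 205 and 199 CPM in GM and 221, 219.9 and 203 CPM in DM. Both overlapped between the media, at 0.11 ± 0.09 (adjusted p = 0.354) and -0.01 ± 0.08 (adjusted p = 0.947). Cyclin E2, which starts S phase, was at 46.6, 34.4 and 33.3 CPM in GM and 40.5, 44.9 and 42.1 CPM in DM and also overlapped (gene Ccne2, adjusted p = 0.372). Thymidine kinase, Tk1, was at 41.5, 41.3 and 34.9 CPM in GM and 83.7, 78.9 and 72.3 CPM in DM and rose by 1 ± 0.12 (adjusted p = 5.36e-07), and E2f2, an activator of S phase genes, rose by 0.79 ± 0.11.

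Among cyclins, inhibitors and the retinoblastoma family 9 of 22 rose and 6 fell. Cyclin D1, which carries growth factor signals into the cycle, was at 696, 762 and 598 CPM in GM and 269, 269.7 and 247 CPM in DM and fell by 1.39 ± 0.12 (gene Ccnd1, adjusted p = 5.72e-08). Cyclin D3, known to accumulate in differentiating muscle, was at 127, 124 and 134 CPM in GM and 149, 143 and 122 CPM in DM and overlapped (gene Ccnd3, adjusted p = 0.331). The inhibitor Cdkn1a, or p21, was at 258, 274 and 265 CPM in GM and 642, 575 and 597 CPM in DM and rose by 1.19 ± 0.07 (adjusted p = 3.26e-11), Cdkn2c by 0.92 ± 0.11 and Rb1 by 0.48 ± 0.1. These inhibitors and the mitosis genes were higher in the same libraries.

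**Figure D3:**
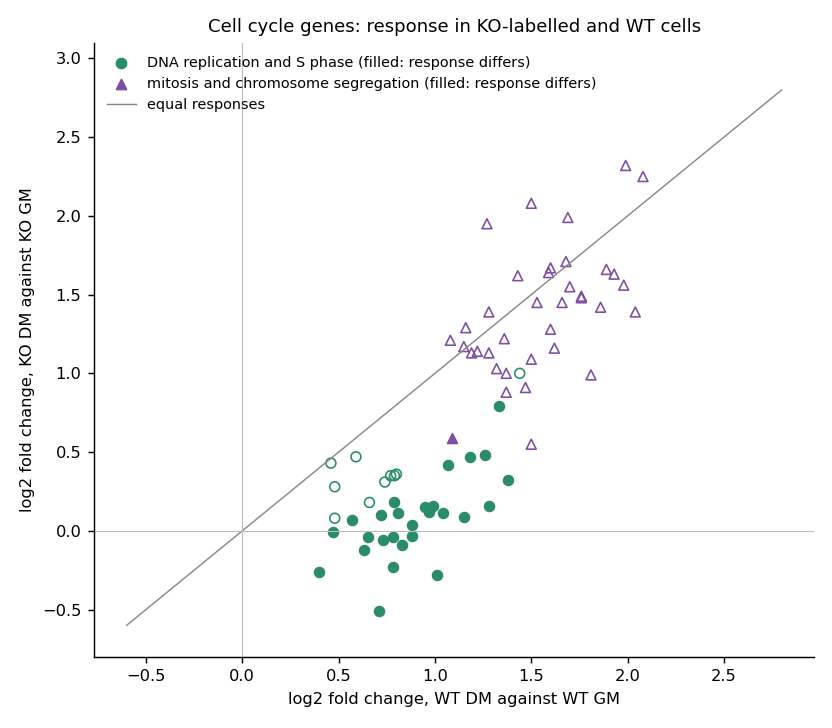
Log2 change from GM to DM of cell cycle genes in KO-labelled cells (y axis) against that in WT cells (x axis), 1 point per gene, with filled points where the difference of the responses had an adjusted p below 0.05. Mitosis genes lie near the diagonal with a KO median of 1.39, and replication genes lie below it, with medians of 0.12 in KO-labelled and 0.79 in WT cells.

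In the p38 pathway 3 of 24 rose and 9 fell (50% called, against 40.6% of all genes tested), with a median of -0.07. Without both GM replicate 3 libraries 5 rose. Both upstream kinases were lower in DM. Map2k3 went from 249.6, 247 and 202 CPM to 160.2, 148 and 135 CPM (change -0.66 ± 0.1, adjusted p = 1.28e-05) and Map2k6 fell by 0.97 ± 0.18. The beta isoform Mapk11 was at 30.1, 29.4 and 23.6 CPM in GM and 14.6, 19.8 and 17 CPM in DM and fell by 0.69 ± 0.14 (adjusted p = 0.000593). The gamma isoform of muscle, Mapk12, was at 24.4, 18.98 and 17.1 CPM in GM and 17.3, 16.8 and 19.5 CPM in DM and overlapped (adjusted p = 0.372). Of the phosphatases that switch p38 off, Dusp1 rose by 0.57 ± 0.11 and Dusp10 fell by 1.1 ± 0.1. The small heat shock protein Hspb1, a substrate downstream of p38, was at 203, 248 and 154 CPM in GM and 134, 119.7 and 102 CPM in DM and fell by 0.77 ± 0.16.

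ERK pathway outputs fell in 17 of 22 and rose in 1, with a median of -0.98. For 7 of them the response was lower than in WT cells, or for 4 without WT DM replicate 2, and for 1 higher. The ERK phosphatase Dusp6 was at 94.1, 108 and 86.01 CPM in GM and 19.96, 18.1 and 16.9 CPM in DM and fell by 2.39 ± 0.15 (adjusted p = 2.18e-09). Dusp5, its nuclear relative, was at 57.3, 71.9 and 39.6 CPM in GM and 8.21, 8.96 and 7.896 CPM in DM (change -2.75 ± 0.32, adjusted p = 9.26e-05), and the DM libraries were alike while GM varied. Dusp4 fell by 0.92 ± 0.13. The ETS factors Etv4 and Etv5 changed by -2.13 ± 0.13 and -1.14 ± 0.1. Hbegf, an EGF receptor ligand, was at 107, 122 and 86.4 CPM in GM and 25.8, 21.9 and 21.7 CPM in DM and fell by 2.18 ± 0.12 (adjusted p = 3.58e-11), and Myc fell by 1.02 ± 0.09. Sprouty feedback inhibitors differed among themselves. Spry4 fell by 2.02 ± 0.2, Spry2 was at 59.6, 55.5 and 66.2 CPM in GM and 61.4, 57.2 and 61.1 CPM in DM and overlapped (adjusted p = 0.928), and Spry1 was the gene that rose, by 0.85 ± 0.22, or by 1.29 without GM replicate 3.

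AP-1 and immediate early genes fell in 14 of 20 and rose in 3. The response was lower than in WT cells for 5 and higher for 3. Fosl1, the AP-1 member that sustained ERK activity stabilises, was at 191, 207 and 175 CPM in GM and 53.1, 50.2 and 42.9 CPM in DM and fell by 1.97 ± 0.12 (adjusted p = 1.77e-09). The orphan receptor Nr4a2 was at 94.7, 83.7 and 90.5 CPM in GM and 10.4, 9.52 and 7.06 CPM in DM and fell by 3.32 ± 0.24 (adjusted p = 1.9e-06). Of the early growth response factors, Egr3 was at 12.2, 12.1 and 12.2 CPM in GM and 7.295, 5.51 and 6.04 CPM in DM and fell by 0.96 ± 0.15 (adjusted p = 2.82e-05), and Egr1 fell by 0.41 ± 0.09. The 3 that rose were Fos, at 3.87, 2.95 and 4.17 CPM in GM and 7.19, 7.75 and 5.94 CPM in DM with a rise of 0.93 ± 0.23 (adjusted p = 0.00268), and Fosl2 and Jund, which rose by 0.44 ± 0.11 and 0.4 ± 0.08. Growth factor receptors were mixed, with 7 of 23 rising, 6 falling and a median of 0. Erbb3, the neuregulin receptor, was at 0.859, 0.433 and 1.51 CPM in GM and 11.9, 12.8 and 12.7 CPM in DM and rose by 3.72 ± 0.25 (adjusted p = 1.02e-10). Ret, the receptor of glial factors, was at 15.5, 21.1 and 11.7 CPM in GM and 2.53, 0.187 and 0.836 CPM in DM and fell by 3.79 ± 0.52 (adjusted p = 0.000181). Its DM replicate 1 was the highest of the group, and without it the change was -4.92. The platelet-derived growth factor receptors went apart, with changes of 1.14 ± 0.09 for Pdgfrb and -0.35 ± 0.09 for Pdgfra, and Met, the hepatocyte growth factor receptor, fell by 0.48 ± 0.1.

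Insulin-like growth factor genes rose in 9 of 18 and fell in 5, the latter 3 without DM replicate 3, GM replicate 2 or GM replicate 3. The ligand Igf1, which drives growth of fibres, showed the largest rise of the genes named by size, at 3.01, 1.82 and 5.498 CPM in GM and 187, 212 and 259.6 CPM in DM. Each DM library was more than 30 times any GM library, and the change was 5.99 ± 0.43 (adjusted p = 6.68e-06). Igf2 rose by 1.03 ± 0.24. Of the binding proteins that hold the ligands, Igfbp5 was at 118, 125 and 194 CPM in GM and 633, 674 and 673 CPM in DM and rose by 2.18 ± 0.16 (adjusted p = 5.17e-07), and Igfbp3 rose by 0.69 ± 0.09. Igfbp2 fell by 0.34 ± 0.08, or by 0.22 without GM replicate 3. Stc2, an inhibitor of the protease that frees IGF, fell by 1.04 ± 0.16.

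Notch genes were called in 6 rises and 4 falls of 15, and the falls numbered 0 to 2 without any 1 of DM replicates 1 to 3, GM replicate 2 or GM replicate 3. The ligand Dll1, which differentiating cells show their neighbours, was at 0.966, 1.47 and 2.66 CPM in GM and 17.2, 14.6 and 15.5 CPM in DM and rose by 3.18 ± 0.25 (adjusted p = 1.47e-09). The target Heyl had 0 counts in GM and 31 in DM, at least 10.6-fold higher. Its mean was 0.989 CPM in KO DM against 13.5 CPM in WT DM. In the Wnt list 12 of 27 rose and 3 fell. Lgr5, the R-spondin receptor of stem cells, was at 0.966, 0.347 and 2.57 CPM in GM and 28.8, 33.7 and 34.7 CPM in DM and rose by 4.62 ± 0.39 (adjusted p = 9.35e-07), while its relative Lgr6 was at 5.26, 6.76 and 3.902 CPM in GM and 0.811, 0 and 0.279 CPM in DM and fell by 3.87 ± 0.46 (adjusted p = 1.92e-06). The change of Lgr5 was 5.67 without GM replicate 3, and that of Lgr6 was -5.11 without DM replicate 1 and -3.26 without DM replicate 2. Sfrp2, a secreted Wnt inhibitor, rose by 3.3 ± 0.36, Dkk2 fell by 1.04 ± 0.11, and the targets Axin2 and Lef1 rose by 0.84 ± 0.13 and 1.14 ± 0.21. Of the TGF-beta and BMP list 12 of 26 rose and 7 fell. The BMP antagonist Grem1 was at 2505, 2489.9 and 2554 CPM in GM and 792, 830.2 and 750.3 CPM in DM and fell by 1.67 ± 0.07 (adjusted p = 2.72e-13). The ligands Gdf6, Bmp4, Tgfb2 and Tgfb3 rose by 2.72 ± 0.22, 1.92 ± 0.16, 1.88 ± 0.4 and 1.72 ± 0.25, and Inhba, the activin chain, fell by 1.23 ± 0.1. Fst, which binds activin and myostatin, and Nog rose by 1.07 ± 0.2 and 1.2 ± 0.23.

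Collagens and basement membrane genes rose in 29 of 44 and fell in 9, with a median of 0.79. The summed fibroblast marker level given above moved with them. That sum includes Dcn and Col1a1, the latter at a mean of 444 CPM in GM and 1136 CPM in DM. It is therefore no separate measure of fibroblasts, and the part of such cells in the result was not tested. Col6a2, a collagen of the muscle interstitium, was at 360.2, 400.4 and 577 CPM in GM and 1383, 1375 and 1379 CPM in DM and rose by 1.63 ± 0.22 (adjusted p = 0.000328). DM libraries were within 1% of each other, and GM replicate 3 was above the other GM libraries. Postn, periostin, was at 8.05, 8.58 and 12.4 CPM in GM and 84.8, 92.4 and 101 CPM in DM and rose by 3.25 ± 0.39 (adjusted p = 0.000183). Dcn, or decorin, a proteoglycan that coats collagen fibrils and a fibroblast marker, was at 0.107, 0.26 and 0.355 CPM in GM and 5.17, 4.02 and 6.22 CPM in DM, a change of 4.3 ± 0.41 (adjusted p = 2.81e-08). In GM Dcn was near the level of 3 counts. Col1a1 and Sparc, which binds collagen, rose by 1.36 ± 0.25 and 1.19 ± 0.19. Against these, Nid1, which joins laminin to collagen IV, was at 1340.2, 1446 and 1188 CPM in GM and 419, 477 and 359 CPM in DM and fell by 1.66 ± 0.16 (adjusted p = 1.04e-05), and Spp1, osteopontin, fell by 1.49 ± 0.15.

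Of the lysyl oxidases and matrix proteases 16 of 30 rose and 8 fell. The gelatinase Mmp2 was at 1048, 1060.3 and 1439 CPM in GM and 2396, 2302 and 2268 CPM in DM and rose by 0.97 ± 0.1 (adjusted p = 1.03e-07), the membrane protease Mmp15 rose by 2.88 ± 0.15 and stromelysin, Mmp3, by 1.46 ± 0.2. Among the genes of this list that fell was the urokinase receptor Plaur, at 124, 136 and 112 CPM in GM and 29.9, 27.4 and 22.9 CPM in DM (change -2.22 ± 0.11, adjusted p = 7.1e-13). Timp1 fell by 0.66 ± 0.09 and Loxl4 fell by 1.38 ± 0.1. Of the integrins 6 of 16 rose and 7 fell. Itga6, a laminin receptor, was at 106, 107 and 71.6 CPM in GM and 41.1, 41.4 and 41.7 CPM in DM and fell by 1.2 ± 0.14 (adjusted p = 7.59e-06), whereas Itga7, named above, rose. Itgb7 fell by 2.27 ± 0.46 and Itga10, which binds collagen, rose by 2.08 ± 0.48, or by 2.73 without GM replicate 3.

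Interferon-stimulated genes rose in 20 of 31 and none fell, with a median of 0.86. Ifit3, an antiviral tetratricopeptide protein, was at 0.429, 0.607 and 0.177 CPM in GM and 2.23, 2.15 and 3.53 CPM in DM and rose by 2.67 ± 0.55 (adjusted p = 0.000435). The regulator Irf7 rose by 1.74 ± 0.49. In GM Ifit3 was near the level of 3 counts. Antigen presentation by MHC class I, which the same factors induce, rose in 14 of 20 with none falling, and the response was higher than in WT cells for 7. The class I chain H2-K1 was at 127, 124 and 147 CPM in GM and 198, 189 and 212 CPM in DM and rose by 0.59 ± 0.08 (adjusted p = 3.26e-06). Tapbp, which loads peptide, was at 69.1, 68.4 and 83 CPM in GM and 183, 177 and 183 CPM in DM and rose by 1.3 ± 0.08 (adjusted p = 3.38e-11), B2m, the light chain, rose by 0.47 ± 0.09, and the immunoproteasome subunit Psmb9 by 1.96 ± 0.4. The interferon response core, GAAA with 2 bases of any kind and GAAA, was in 3.44% of all promoters, in 16 of 30 of the interferon list and in 5 of 19 of the class I list. Capitals mark it in the promoter of Ifit3 (chr19:34583279-34583578, plus strand), where the printed strand carries its reverse complement.
Ifit3: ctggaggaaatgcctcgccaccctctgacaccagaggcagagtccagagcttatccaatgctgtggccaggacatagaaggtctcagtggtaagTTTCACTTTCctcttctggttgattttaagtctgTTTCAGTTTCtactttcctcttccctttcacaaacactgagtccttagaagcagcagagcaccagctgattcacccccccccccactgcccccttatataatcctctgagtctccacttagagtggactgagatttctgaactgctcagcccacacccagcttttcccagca

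Chemokines and cytokines were called in 9 rises and 10 falls of 26, and the response was higher than in WT cells for 7 and lower for none. The monocyte attractants Ccl2 and Ccl7 were at 8.16, 7.19 and 14.4 CPM in GM and 54.4, 50.6 and 52.6 CPM in DM and at 7.62, 7.28 and 8.51 CPM in GM and 43.6, 49.2 and 47.1 CPM in DM. Neither overlapped, and they rose by 2.4 ± 0.18 (adjusted p = 1.51e-08) and 2.58 ± 0.11 (adjusted p = 2.72e-13). The EGF receptor ligands Ereg and Areg fell. Ereg was at 297, 296 and 203 CPM in GM and 29.7, 29.4 and 19.2 CPM in DM (change -3.35 ± 0.26, adjusted p = 8.5e-06), and Areg fell by 3.63 ± 0.46. Il11 fell by 2.53 ± 0.37. Of acute phase and NF-kB genes 13 of 30 rose and 7 fell. C3, the central complement protein, was at 82.3, 94.5 and 134 CPM in GM and 271, 294 and 267 CPM in DM and rose by 1.42 ± 0.17 (adjusted p = 4.82e-05). Saa3, an acute phase lipoprotein, was at 1.83, 1.73 and 4.52 CPM in GM and 22.7, 17.6 and 18.5 CPM in DM and rose by 2.84 ± 0.32 (adjusted p = 1.72e-06), Steap4, a metalloreductase, by 4.57 ± 0.45 and Serpina3g by 3.45 ± 0.47. The last 3 changes, with GM replicate 3 left out, were 3.46, 5.23 and 4.32. Ptgs2, the inducible prostaglandin synthase, was at 307, 324 and 294 CPM in GM and 46.6, 54.9 and 32.3 CPM in DM and fell by 2.79 ± 0.13 (adjusted p = 2.32e-10), Nos2 fell by 3.24 ± 0.28 and the metallothionein Mt2 fell by 1.27 ± 0.1.

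Sterol synthesis genes rose in 21 of 29, with a median of 0.72. None fell with all libraries, and 1 did without KO GM replicate 3 or WT GM replicate 3. The response was lower than in WT cells for 7, or for 4 without WT DM replicate 3. SREBP2 switches these genes on when cells take up less sterol, and serum lipoproteins are a source of it. Hmgcs1, at the entry of the pathway, was at 33.6, 29.7 and 32.5 CPM in GM and 102, 102 and 109 CPM in DM and rose by 1.71 ± 0.1 (adjusted p = 7.3e-12). Fdps rose by 1.74 ± 0.1 and Insig1, which retains SREBP in the reticulum, by 1.94 ± 0.14. Sqle, the epoxidase, was not called, at 119.6, 123 and 119 CPM in GM and 113, 118 and 105 CPM in DM (adjusted p = 0.226). A sterol response element of the letters TCACNCCAC was in 1.24% of all promoters and in 1 of 29 of this list, that of Hmgcs1 (chr13:119690101-119690400, plus strand), where capitals mark it.
Hmgcs1: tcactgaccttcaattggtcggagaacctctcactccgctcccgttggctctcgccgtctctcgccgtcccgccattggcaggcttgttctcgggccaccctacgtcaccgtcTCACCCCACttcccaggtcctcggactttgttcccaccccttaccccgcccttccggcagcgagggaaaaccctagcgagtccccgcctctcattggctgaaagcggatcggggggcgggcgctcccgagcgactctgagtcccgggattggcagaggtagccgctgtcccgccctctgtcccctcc

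Of the fatty acid list 12 of 26 rose and 6 fell. The desaturases Fads2 and Scd2 rose by 1.57 ± 0.1 and 1.23 ± 0.1 and the synthase Fasn by 0.46 ± 0.08, while Acly, which supplies its acetyl-CoA, fell by 0.41 ± 0.08. Plin2, the coat of lipid droplets, was at 263, 288 and 182 CPM in GM and 108, 100.4 and 103 CPM in DM and fell by 1.24 ± 0.22 (adjusted p = 0.00201), and Angptl4 fell by 1.26 ± 0.21.

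Glycolysis and hypoxia-inducible genes fell in 34 of 38, with a median of -0.72 against -0.3 in WT cells. The response was lower than in WT cells for 21 of them, or for 11 to 13 without WT DM replicate 3, WT GM replicate 2, KO DM replicate 3 or KO GM replicate 2. With all libraries none rose, and 1 did without KO GM replicate 3 or WT GM replicate 3. Pgk1, an enzyme that yields ATP, was at 2497, 2463 and 2407 CPM in GM and 1522, 1438 and 1365 CPM in DM and fell by 0.77 ± 0.07 (adjusted p = 7.81e-09). Ldha, which makes lactate, was at 2524, 2557 and 2424 CPM in GM and 1529.5, 1446 and 1322 CPM in DM and fell by 0.8 ± 0.07 (adjusted p = 3.8e-09), and Gapdh fell by 0.6 ± 0.07. The transporter Slc2a1 was at 265, 325 and 299.9 CPM in GM and 131, 132 and 114 CPM in DM and fell by 1.24 ± 0.09 (adjusted p = 3.76e-10). Ndrg1, a hypoxia target, was at 440.4, 514 and 481 CPM in GM and 168, 174 and 144 CPM in DM and fell by 1.56 ± 0.08 (adjusted p = 2.83e-12). Every DM library was below every GM library for these 5 genes. The sum over the list was 25836 to 26459 CPM in GM and 15698 to 18071 CPM in DM.

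Respiratory chain genes moved little. Of 46 nuclear-encoded genes 9 rose, none by 2-fold, and 2 fell, with a median of 0.08. The rises numbered 5 without DM replicate 1 and 14 without WT GM replicate 3. The falls numbered 1 without any of the KO DM replicates, WT DM replicate 2 or 3, or GM replicate 1 or 2 of either genotype, and under 6 other settings. Ndufv1 of complex I was at 103, 109 and 102 CPM in GM and 141, 131 and 136 CPM in DM and rose by 0.38 ± 0.08 (adjusted p = 0.000291), and cytochrome c, Cycs, fell by 0.45 ± 0.09. Of the 13 mitochondrial-encoded transcripts 2 rose, or 0 without GM replicate 2, 1 without DM replicate 3, 4 without WT GM replicate 1 or 3 and 5 without both GM replicate 3 libraries, and their summed level overlapped between the media, at 27379.6 to 34768 CPM in GM and 32987 to 37502 CPM in DM. Cytosolic ribosomal proteins fell in 76 of 77, with a median of -0.48, and Rpl22l1, named after its values were seen, was the gene not called. They took 5.13 to 5.91% of counts in GM and 3.92 to 4.2% in DM. Rps6 was at 1202, 1114 and 1044 CPM in GM and 793, 741 and 743 CPM in DM and fell by 0.56 ± 0.07 (adjusted p = 1.65e-06), and Rpl3 and Rps19 changed by -0.51 ± 0.08 and -0.72 ± 0.07.

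**Figure D4:**
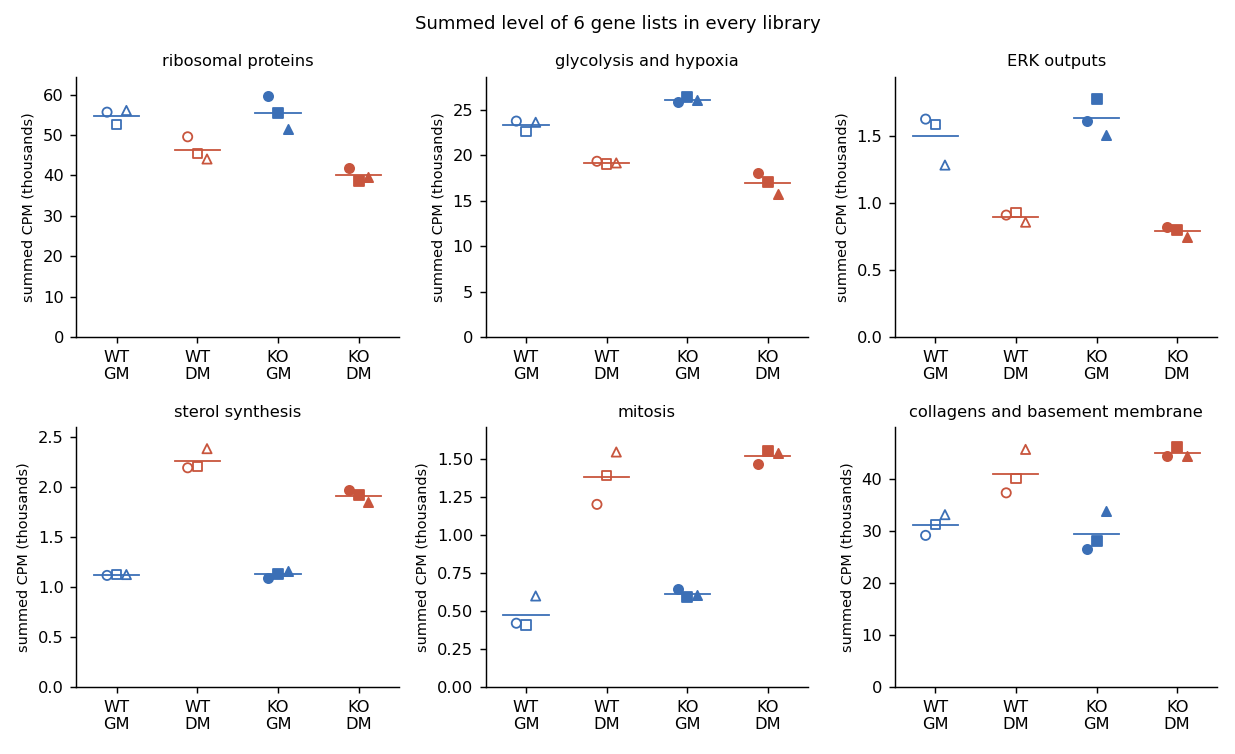
Summed CPM of gene lists in each library (y axis), GM beside DM, with filled symbols for KO-labelled and open symbols for WT cells, 1 symbol per library. In KO-labelled cells the glycolysis sum lies at 25836 to 26459 CPM in GM and 15698 to 18071 CPM in DM, and the mitosis sum at 594 to 647 CPM and 1466 to 1553 CPM.

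Stress and turnover lists were mixed. Of the ER stress and ATF4 list 3 of 33 rose and 16 fell, the former 5 without KO GM replicate 1, 6 without WT GM replicate 3 and 8 without both GM replicate 3 libraries. The amino acid genes Asns, Psat1 and Slc7a11 fell, with changes of -0.98 ± 0.13, -0.89 ± 0.11 and -2 ± 0.22, and Herpud1, of protein clearance from the reticulum, rose by 0.8 ± 0.07. The chaperone Hspa5 was at 1269, 1273 and 1605 CPM in GM and 1292, 1281 and 1374 CPM in DM and overlapped (adjusted p = 0.776). Of FoxO targets and autophagy genes 14 of 34 rose and 4 fell. The 2 ubiquitin ligases of muscle wasting went apart. Trim63, which tags sarcomere proteins, was at 0.752, 0.52 and 0.709 CPM in GM and 6.38, 5.32 and 12.8 CPM in DM and rose by 3.62 ± 0.38 (adjusted p = 1.9e-07), and Fbxo32 was at 65.7, 73.2 and 68.1 CPM in GM and 35.2, 34.6 and 36.9 CPM in DM and fell by 0.96 ± 0.08 (adjusted p = 5.3e-09). Txnip, which restrains glucose uptake, fell by 1.24 ± 0.08. Of p53 targets and the BCL2 family 7 of 29 rose and 7 fell, the falls numbering 4 without DM replicate 2 or 3 or GM replicate 1 or 2. With all libraries 48.3% of this list were called, against 40.6% of all genes tested. The death receptor Fas was at 5.37, 6.67 and 8.25 CPM in GM and 27.5, 23.7 and 26.01 CPM in DM and rose by 1.92 ± 0.18 (adjusted p = 1.51e-08), and Eda2r rose by 1.31 ± 0.11.

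The largest fall among genes named by size was in the aryl hydrocarbon receptor pathway, in which 4 of 20 rose and 9 fell. Without GM replicate 3, 7 rose. The receptor senses planar aromatic ligands and induces its own repressor and the enzymes that clear them. The monooxygenase Cyp1a1 was at 38.9, 40.9 and 33.3 CPM in GM and 0.203, 0.5603 and 0.186 CPM in DM, and fell by 6.83 ± 0.37 on the log2 scale (adjusted p = 5.21e-10), or 114-fold. All GM libraries were above 30 CPM and all DM libraries below 1 CPM, and without DM replicate 2 the change was -7.49. DM replicates 1 and 3 were below the level of 3 counts, 0.304 and 0.279 CPM, so the fitted fold rests on few counts. The repressor Ahrr was at 34.8, 30.7 and 32.99 CPM in GM and 11.8, 9.99 and 10.1 CPM in DM and fell by 1.63 ± 0.14 (adjusted p = 4.71e-09). Tiparp, which also damps the receptor, was at 138, 121 and 113 CPM in GM and 53.6, 57.8 and 56.8 CPM in DM and fell by 1.14 ± 0.1 (adjusted p = 2.6e-08), and the quinone reductase Nqo1 fell by 1.36 ± 0.11. The receptor gene Ahr itself was at 84.1, 77.5 and 161 CPM in GM and 140.1, 159 and 159 CPM in DM, and GM replicate 3 was above the DM libraries (difference 0.5 ± 0.32, adjusted p = 0.266). Ahr was called without that library (adjusted p = 0.0253), and with it by limma-voom (adjusted p = 0.0457). Cyp1b1, another target, was at 251, 225 and 328 CPM in GM and 305, 339.8 and 334 CPM in DM and overlapped (adjusted p = 0.0905) in the test over all libraries. It was called without GM replicate 3 of either genotype or both, without the low-count filter, by limma-voom and by DESeq2, where its change was 0.29 to 0.48. The core GCGTG, searched on both strands, was in 32.4% of all promoters and in 9 of 16 of this list. Capitals mark it in the promoter of Cyp1a1 (chr9:57697363-57697662, plus strand), which holds it at 1 place.
Cyp1a1: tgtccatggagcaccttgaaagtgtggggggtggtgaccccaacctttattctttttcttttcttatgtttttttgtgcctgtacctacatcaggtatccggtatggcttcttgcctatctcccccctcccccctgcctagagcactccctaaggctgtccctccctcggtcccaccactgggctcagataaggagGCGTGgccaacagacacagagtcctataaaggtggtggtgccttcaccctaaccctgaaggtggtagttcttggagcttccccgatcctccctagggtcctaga

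Of 5 genes tested for adrenomedullin signalling 3 fell and 1 rose, or none rose without GM replicate 2 or GM replicate 3. Ramp3, which pairs with the calcitonin-like receptor to make it bind adrenomedullin, was at 49.3, 54.3 and 41.2 CPM in GM and 0.709, 0.467 and 0.6502 CPM in DM and fell by 6.29 ± 0.29 (adjusted p = 1.76e-11), and the ligand Adm was at 13.5, 17.5 and 19.4 CPM in GM and 4.66, 5.14 and 3.25 CPM in DM and fell by 1.95 ± 0.19 (adjusted p = 4.04e-08). The receptor gene Calcrl was low throughout, at 0.107, 0.433 and 0.532 CPM in GM and 0.304, 0.467 and 0.186 CPM in DM. Of 9 proliferin, small proline-rich and stress-associated genes 1 rose and 7 fell. Sprr1a, a cross-linked envelope protein of epithelia, was at 15.03, 17.4 and 12.7 CPM in GM and 0.203, 0.2801 and 0.0929 CPM in DM and fell by 6.21 ± 0.39 (adjusted p = 1.14e-10). In DM Sprr1a was at or below the level of 3 counts in each library. The proliferins Prl2c2 and Prl2c3, which are near-identical copies that the counting may have split, fell, with changes of -5.91 ± 0.49 and -5.53 ± 0.48. In GM their replicate 3 was the lowest, with Prl2c2 at 284, 238 and 145 CPM in GM and 4.66, 4.202 and 2.23 CPM in DM. The serpin Serpinb2 was at 56.8, 48.5 and 32.1 CPM in GM and 1.11, 1.21 and 1.76 CPM in DM (change -5.05 ± 0.26, adjusted p = 2.05e-10). Sprr2h and the cornified envelope gene Lce1g fell, with changes of -5.49 ± 0.64 and -4.07 ± 0.47, and without DM replicate 2 their changes were -6.14 and -4.89. The AP-1 letters TGANTCA were in 7.81% of all promoters, in 4 of 8 of this list, in 5 of 21 of the lysyl oxidase and protease list and in none of 22 of the immediate early genes. Capitals mark 2 of them in the promoter of Sprr1a (chr3:92485832-92486131, minus strand).
Sprr1a: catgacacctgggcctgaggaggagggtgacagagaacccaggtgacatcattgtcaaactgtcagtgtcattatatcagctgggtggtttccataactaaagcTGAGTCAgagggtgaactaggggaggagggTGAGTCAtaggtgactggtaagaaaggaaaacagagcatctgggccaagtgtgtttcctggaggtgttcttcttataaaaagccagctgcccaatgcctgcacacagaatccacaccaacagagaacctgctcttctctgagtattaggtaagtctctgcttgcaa

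Further large rises were in Adamtsl2, a matrix glycoprotein, at 0.107, 0.52 and 0.975 CPM in GM and 23.2, 18.2 and 21.6 CPM in DM (5.2 ± 0.41, adjusted p = 1.93e-07), and Itgb1bp2, the integrin-binding melusin of muscle, at 0.107, 0 and 0.887 CPM in GM and 12.97, 9.99 and 10.8 CPM in DM. The latter changed by 4.99 ± 0.41, or by 7.54 without GM replicate 3 and 4.37 without GM replicate 2. R3hdml, the tetraspanin Tspan8 and the matricellular Ccn5 rose by 4.88 ± 0.23, 4.24 ± 0.34 and 4.17 ± 0.52. Without GM replicate 3 the changes of Adamtsl2, R3hdml, Tspan8 and Ccn5 were 5.92, 5.47, 5.15 and 5.06. Further large falls were in U90926 (-6.05 ± 0.4), Plek, a substrate of protein kinase C (-4.68 ± 0.25), the lipid ligase Acsbg1 (-4.13 ± 0.54) and the uridine phosphorylase Upp1 (-3.86 ± 0.4). The media did not overlap in the 12 largest rises and the 12 largest falls, since their choice required it. In all of them GM replicate 3 was the GM library nearest to DM.

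**Figure D5:**
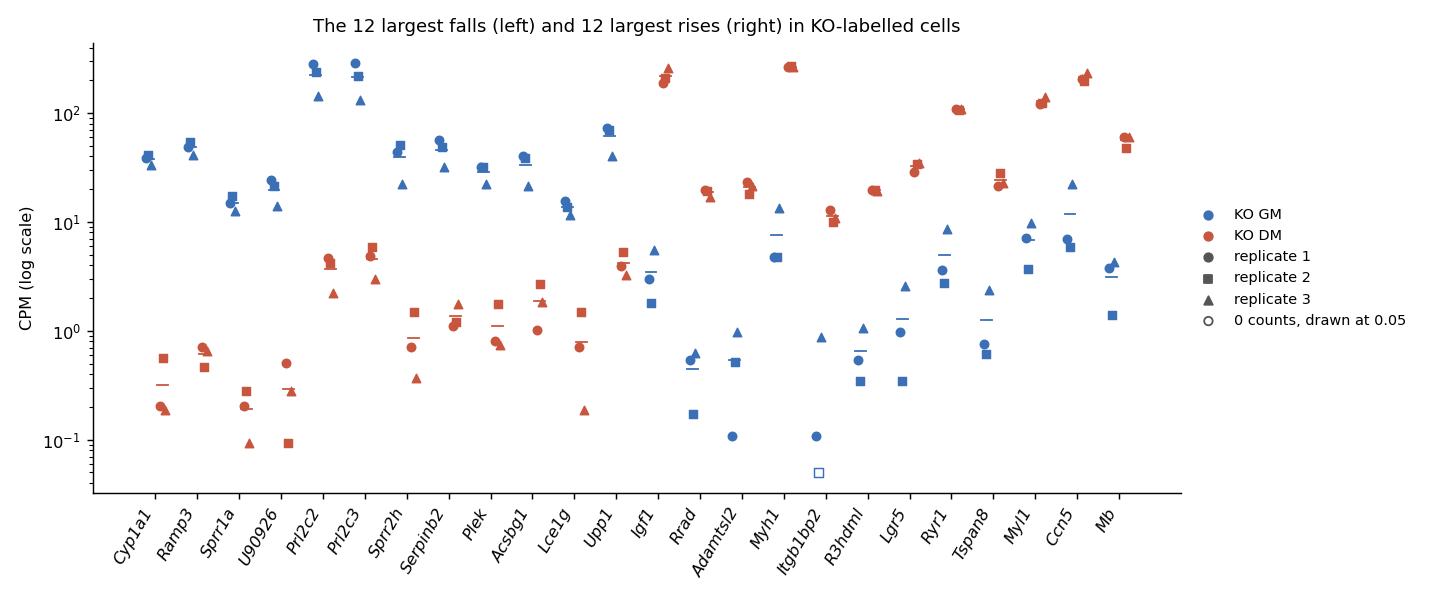
CPM (y axis, log scale) of the 12 largest rises and 12 largest falls in the 3 GM and 3 DM libraries of KO-labelled cells, 1 symbol per library. Genes were chosen by size and for not overlapping, so the gap is given as a description, from Igf1 (5.99 ± 0.43) to Cyp1a1 (-6.83 ± 0.37).

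Imprinted genes rose in 7 of 13 and none fell. The non-coding RNA H19 was at 332, 254 and 542 CPM in GM and 1222, 1130.0 and 1259 CPM in DM and rose by 1.68 ± 0.37 (adjusted p = 0.00632), and Mest rose by 1.42 ± 0.21. Of the intermediate filaments and lamins 6 of 11 rose and 2 fell, the latter 1 without any of the DM replicates or GM replicate 2. Synm, which copolymerises with desmin, was at 2.04, 1.65 and 2.31 CPM in GM and 8.11, 7.84 and 8.45 CPM in DM and rose by 2.02 ± 0.26 (adjusted p = 1.42e-06), nestin (Nes) rose by 0.62 ± 0.07, and vimentin, Vim, fell by 0.63 ± 0.08. Of bone and cartilage genes 4 of 12 rose, or 2 without GM replicate 1, and 6 fell. Dlx3 was at 28.8, 30.2 and 23.3 CPM in GM and 6.69, 6.07 and 3.44 CPM in DM and fell by 2.35 ± 0.21 (adjusted p = 5.76e-08), and the lineage factors Runx2 and Sox9 fell, with changes of -0.36 ± 0.08 and -1.03 ± 0.18.

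Genes with 0 counts in all 3 libraries of a medium and at least 10 in each of the other numbered 3 in each direction. Gipr, the receptor of a gut hormone, had 36, 67 and 47 counts in GM and 0 in DM, at least 48.8-fold lower. Sprr2g had 24, 34 and 44 counts in GM, at least 33.2-fold higher than in DM, and Klk8, a secreted protease, 31, 52 and 10, at least 30.2-fold higher. In the other direction stood Xirp2, given above, Cd7 with 15, 19 and 19 counts in DM and the predicted gene Gm5532 with 15, 18 and 20, each of the latter at least 18.1-fold higher. Cd7, a surface protein of lymphocytes, had 2 counts in the WT GM libraries together and 1 in the WT DM libraries, while the leukocyte markers Cd3e and Ptprc were at 0. Without GM replicate 3 the genes at 0 in GM numbered 14 and those at 0 in DM 5.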

How the data were processed

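Total RNA of 12 C2C12 samples was sequenced as 150-base paired reads, per the labels. The authors deposited 1 table of read counts per gene. Symbols came from a gene name table and matched 52083 of its 55416 gene IDs. The submitters' processing notes name STAR 2.7.1a, RSEM 1.3.3, GRCm39, R 4.3.1 and DESeq2 1.40.2. The columns held whole numbers and were used as deposited, and 4 empty columns were not used. Whether counting used strand is not given in the sources used here, so overlapping, antisense and near-identical genes (ribosomal proteins, MHC class I, proliferins, Gapdh and their copies) are uncertain.

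Columns were assigned to samples by name. Genes passing edgeR's filterByExpr (13250 of 55416) were fitted over all 12 libraries with 4 group means, TMM scaling and the robust quasi-likelihood test (edgeR 4.0.16, R 4.3.3), with Benjamini-Hochberg adjustment and a threshold of 0.05. The filter took in all 4 groups, so a gene low in KO-labelled cells could pass through its level in WT cells. The responses of KO-labelled and WT cells were compared by the difference of their contrasts. A fold against 0 counts is a bound computed from a floor of 3 counts over the group, for counting error only. The fit was tested on simulated data. Alternatives were other scalings, filters, fits and libraries left out, limma-voom (limma 3.58.1) and DESeq2 1.42.0.

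The members and the 50 gene lists were chosen with earlier results of these data known. Named genes were Mapk14, the 12 largest called rises and 12 largest falls (no overlap, 10 CPM or more in the higher medium), preset members of each list with its 2 largest rises and falls, and genes at 0 in a medium; some genes are not reported here. Promoters came from RefSeq (GRCm38.p6), which held 797 of 1081 listed genes tested. The labels call the replicates biological, and nothing says that they came from separate cultures, so p-values measure only the spread between these samples.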

Additional observations from a re-analysis of the deposited data

Results flagged for a closer look

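The response to DM, the log2 change from GM, differed between KO-labelled and WT cells for 90 of the 248 tested genes named in these texts, and for 57 of those the call held under every alternative processing that was run. These follow as the KO-labelled response less the WT response on the log2 scale. Each had an adjusted p below 0.05 in edgeR's quasi-likelihood test of that difference over all genes. The genes were named for their response in KO-labelled cells or as members of lists, so their number is a description. Over all genes the response differed in 1174 of 13250 tested, or 8.86%, a share that genes chosen in this way need not match.

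In 6 genes the medium moved the RNA up in one kind of cell and down in the other, each past the threshold. Egr3 had a change of -0.96 in KO-labelled and 1.53 in WT cells, a difference of -2.49 (adjusted p = 3.07e-07, edgeR). Egr1 differed by -1.32, with -0.41 against 0.9. Itga6 differed by -1.87, with -1.2 against 0.67. Tagln differed by -1.24, with -0.66 against 0.58. The binding proteins Igfbp3 and Igfbp2 differed in opposite senses, by 1.14 (0.69 against -0.44) and -0.67 (-0.34 against 0.33).

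Among muscle genes the rise was larger in KO-labelled cells for Rrad by 2.91, Synm by 1.63, Smyd1 by 1.45, Musk by 1.23, Chrnd by 0.94, Pdk4 by 0.9 and Myod1 by 0.64. A larger rise was not a higher level for most of them. Mean DM levels in KO-labelled and WT cells were 18.7 and 33.8 CPM for Rrad, 18.5 and 56.7 CPM for Smyd1 and 18.2 and 40 CPM for Musk. They were 68.4 and 128 CPM for Chrnd and 123 and 155 CPM for Myod1. Synm (8.13 against 2.25 CPM) and Pdk4 (26.9 against 13.5 CPM) were higher in KO-labelled cells. The rise was smaller for Cdh2 by -0.76, Nes by -0.6 and Ncam1 by -0.55. Of the Id genes, Id3 differed by 0.97 and Id2 by -0.83. Contractile genes shared with smooth muscle were lower in their response, Cnn1 by -2.21 and Actg2 by -1.5, while Ccn1 was higher by 0.65. The cell cycle genes Ccne2, Mcm5 and Ccnd3 had differences of -1.12, -0.93 and -0.65.

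Among growth factor signals the differences were -1.18 for Etv4, -1.12 for Dusp6, -0.96 for Hbegf, -0.88 for Dusp4 and -0.79 for Dusp10. They were 0.8 for Dusp1, 0.64 for Spry2 and 0.48 for Pdgfrb. Igfbp5 differed by 1.68, Dll1 by 1.6, Stc2 by -1.03 and Inhba by -0.7. In DM Igfbp5 had a mean of 660 CPM in KO-labelled and 961 CPM in WT cells, and Dll1 one of 15.8 and 13.5 CPM. Matrix genes differed upward in Dcn by 3.11, Mmp3 by 2.14 and Mmp2 by 0.91, and downward in Serpinb2 by -2.73 and Timp1 by -0.56. The mean of Dcn in DM was still lower in KO-labelled cells (5.14 CPM) than in WT cells (36.4 CPM), while those of Mmp3 and Mmp2 were higher. In KO GM Dcn was near the level of 3 counts, so its difference rests on few counts. Immune genes differed upward in Ccl7 by 1.94, C3 by 1.43, Ccl2 by 1.36, Tapbp by 0.81 and H2-K1 by 0.8.

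In metabolism and turnover the differences were -0.71 for Ndrg1, -0.65 for Psat1, -0.53 for Pgk1, -0.5 for Fbxo32, -0.41 for Gapdh and 0.42 for Herpud1. Tiparp differed by -1.02 and Sprr1a by -5.19. Sprr1a was at or below the level of 3 counts in each KO DM library, so its fitted value rests on few counts. Gipr and Sprr2g differed by -6.34 and -6.5, fitted values that depend on the prior count because both had 0 counts in KO DM. Hmga2, given among the other observations, differed by -1.81.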

How the results depend on the processing

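The number of genes that rose was 2225 to 3264 and the number that fell 2061 to 2792 over the 23 alternatives, each within 1.5 times the main count. Among the genes named in these texts, no called value changed sign under an alternative that tested it. Other genes were not checked for a change of sign. List medians changed sign over the alternatives for the inhibitors of differentiation (-0.09 to 0.06), growth factor receptors (-0.03 to 0.11), Notch (-0.08 to 0.07), integrins (-0.26 to 0.32) and endothelial markers (-0.74 to 0.21). The genes whose response differed from WT cells numbered 1174. Leaving out single libraries gave 693 (WT DM replicate 2) to 1920 (KO GM replicate 3), with 293 to 969 higher and 400 to 951 lower, and leaving out both GM replicate 3 libraries gave 2709, with 1373 higher and 1336 lower. Genes at 0 counts in GM numbered 3, or 4 to 14 without a single KO library, and 14 without both GM replicate 3 libraries. Those at 0 in DM numbered 3, or 5 without KO GM replicate 3 and 5 without both. The causes were not tested. A higher response made up 40.7% of the differences and 57.8% by total counts alone. With the replicate number as a block, 2887 genes rose and 2792 fell, and 1587 responses differed, and Ahr (adjusted p = 0.0413) and Cyp1b1 (adjusted p = 0.0166) were called. Same-numbered GM and DM libraries of KO-labelled cells had correlations of -0.09, 0 and 0 between their deviations from the group means. The numbers were therefore not read as pairs of GM and DM. That check did not compare the GM libraries of KO-labelled and WT cells, in each of which replicate 3 stood apart. At these depths genes near 3 counts in both media cannot show a change, and 3 libraries a group limit every p-value.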

Other observations

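Genes outside the lists, chosen after their values were seen, included both HMGA genes, which encode architectural chromatin proteins of embryonic and dividing cells. Hmga2 was at 267, 263 and 167 CPM in GM and 20.6, 18.8 and 16.6 CPM in DM and fell by 3.64 ± 0.26 (adjusted p = 5.31e-06, edgeR), and Hmga1 was at 271, 284 and 171 CPM in GM and 21.8, 21.4 and 13.6 CPM in DM and fell by 3.68 ± 0.34 (adjusted p = 3.78e-05). GM replicate 3 was the lowest of the GM libraries for both. Nid2, the relative of Nid1 in the basement membrane, was at 123, 118 and 276 CPM in GM and 729, 759.8 and 771 CPM in DM and rose by 2.13 ± 0.4 (adjusted p = 0.00284), the opposite direction to Nid1. Its GM replicate 3 was the highest of the GM libraries.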
